A study of Mus musculus with 35 samples.

Results

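The Obox genes (oocyte-specific homeobox) examined here were the 5 listed members Obox1, Obox2, Obox3, Obox5 and Obox6. They were chosen by name, with earlier results of these data known. The choice was out of the 21887 protein-coding genes that the RefSeq table for GRCm38.p6, the assembly that mm10 names, places on autosomes, X and Y. All 5 lie on mouse chromosome 7 between 15 and 16 Mb. The values are peaks of NELFA, one of the subunits of negative elongation factor (NELF), mapped by chromatin immunoprecipitation and sequencing (ChIP-seq). The cells were E14 mouse embryonic stem cells in medium with serum, LIF and 2i, and the design describes a stable line with a Dox-inducible NELFA-StrepHA-P2A-EGFP transgene, in which EGFP reports the tagged protein. Every ChIP-seq library, input included, came from cells given 0.4 µg/ml doxycycline for 16 h to induce the transgene. There were 4 HA immunoprecipitates, 3 with HAantibody1 (replicates 1 to 3) and 1 with HAantibody2 (replicate 3), against 3 inputs without antibody, 1 for each replicate. No ChIP-seq library of uninduced cells is used here. The labels do not say whether the line was 1 clone. A single list of 59485 peaks stands for all 7 libraries, so no value has a replicate error, no test between conditions was possible, and the read depth is unknown. The list holds no expression values, so the labelled cell type could not be checked against its markers.

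NELF holds RNA polymerase II shortly after the start of transcription, and its release lets elongation proceed. The Obox genes encode paired-type homeodomain proteins made in the oocyte and the early embryo. In the mouse the products of Obox1, Obox2 and Obox5 are known as maternal and that of Obox3 as zygotic, and the family is known to take part in zygotic genome activation, the burst of transcription at the 2-cell stage. A few embryonic stem cells in a culture enter a 2-cell-like state with a similar programme, the state that the study relates to NELFA. The family also includes a large number of pseudogenes, mostly copies named for Obox4 and Obox3.

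The RefSeq promoter table (GRCm38.p6) held a start for Obox1, Obox2, Obox3 and Obox5, and their windows of 300 bases (250 before the annotated start and 50 after) are shown because these starts were scored for NELFA peaks and because their likeness bears on how reads can be placed. They run 5′ to 3′ on the gene's strand. The windows are chr7:15547007-15547306 (Obox1, plus strand), chr7:15388601-15388900 (Obox2, plus), chr7:15639728-15640027 (Obox3, minus) and chr7:15750120-15750419 (Obox5, plus). Capitals mark the longest run common to the Obox1, Obox3 and Obox5 windows and that of Obox7, of 42 bases. In Obox2 they mark the longest run that all of these windows share, of 25 bases. The Obox2 window ends before the place where the run of 42 bases follows in Obox1. Whether Obox2 holds that run beyond its window was not determined.
Obox1: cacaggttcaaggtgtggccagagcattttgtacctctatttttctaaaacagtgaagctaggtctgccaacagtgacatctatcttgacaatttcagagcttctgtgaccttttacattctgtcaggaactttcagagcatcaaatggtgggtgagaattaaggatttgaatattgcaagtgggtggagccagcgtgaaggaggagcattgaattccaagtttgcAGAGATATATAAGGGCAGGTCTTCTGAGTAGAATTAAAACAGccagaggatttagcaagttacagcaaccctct
Obox2: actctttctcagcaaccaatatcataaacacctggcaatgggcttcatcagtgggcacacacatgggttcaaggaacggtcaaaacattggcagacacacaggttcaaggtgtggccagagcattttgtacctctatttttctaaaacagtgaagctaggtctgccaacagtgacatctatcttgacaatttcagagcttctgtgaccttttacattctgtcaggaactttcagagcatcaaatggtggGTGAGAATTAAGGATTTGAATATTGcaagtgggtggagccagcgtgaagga
Obox3: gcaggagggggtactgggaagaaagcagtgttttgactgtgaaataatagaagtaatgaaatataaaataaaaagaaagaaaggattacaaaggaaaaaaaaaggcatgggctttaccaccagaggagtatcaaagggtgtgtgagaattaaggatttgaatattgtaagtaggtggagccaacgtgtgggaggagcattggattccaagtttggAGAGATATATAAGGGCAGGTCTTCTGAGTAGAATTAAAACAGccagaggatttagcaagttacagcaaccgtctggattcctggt
Obox5: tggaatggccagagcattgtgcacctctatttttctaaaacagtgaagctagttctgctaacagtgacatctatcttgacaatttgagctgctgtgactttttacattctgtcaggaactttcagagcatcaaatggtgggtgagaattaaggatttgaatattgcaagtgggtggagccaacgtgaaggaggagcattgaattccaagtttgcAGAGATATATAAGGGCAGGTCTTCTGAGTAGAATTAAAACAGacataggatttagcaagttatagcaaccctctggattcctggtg

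Over the aligned parts, the 6 pairs of member windows were 90.3 to 100% identical (local alignments of 62 to 285 columns). The Obox1 and Obox2 windows matched in all 203 aligned bases, with the annotated start of Obox2 placed farther upstream in the shared sequence. The run of 42 bases began 24 bases before the start of Obox1, 35 before that of Obox3 and 36 before that of Obox5. It contains TATATAAG, a TATA-like run looked for after the sequences were seen, 19, 30 and 31 bases before these starts. Searched on both strands, TATATAAG occurred in 1.01% of all 32851 promoter windows of the table. Of the motifs listed beforehand, the DUX site TGATTNNATCA (0.207% of all windows), the E-box CACGTG (7.15%) and the GC box GGGCGG (35.7%) were in none of the 4 member windows. The TATA box TATAAA (13.6%) and the bicoid-type homeobox site TAATCC (7.06%) were in the Obox3 window alone, 189 and 168 bases before its start. These motifs too were searched on both strands, and TAATCC lies on the opposite strand, so the printed window reads GGATTA.

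Peaks of NELFA were found at 2 of the 5 Obox genes, Obox2 and Obox3. A boundary peak, one with its summit within 1 kb of either annotated end of the gene, was found at Obox2 alone, 1 of the 5 (20.0%), against 18.8% of all protein-coding genes. A peak in the interior, beyond 1 kb from both ends, was found in Obox3 alone, against 20.0% of all protein-coding genes. Obox1, Obox5 and Obox6 had neither, so 2 of 5 had any peak, against 32.2% of all protein-coding genes. Interior peaks depend on gene length, and among the 3905 protein-coding genes within the members' range of lengths 11.1% had an interior peak and 24.4% any peak. Counts of 1 and 2 among 5 genes do not set the members apart from these shares. Of the 4 members with a start in the promoter table, 0 had a summit within 1 kb of it. The share was 18.6% of 17492 protein-coding genes with a start there. A count of 0 among 4 does not set the members apart from this share either. Whether reads from these alike windows were lost or placed elsewhere was not tested.

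Obox2 (chr7:15388851-15398545, plus strand) had a single weak peak at its far end. The interval chr7:15399260-15399329 was 70 bp wide and had a fold enrichment of 1.86, a linear ratio to background as the authors' caller reports it, with a −log10 q of 1.83. Its summit lay 747 bp beyond the end of the gene. A second peak (chr7:15399701-15399934, fold 2.13) had its summit 1302 bp beyond that end, just outside the 1 kb limit. From the start of Obox2 the nearest summit was 10441 bp away. Both folds were close to the median of the whole list, 2.09.

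Obox3 (chr7:15625306-15639777, minus strand) held the strongest peak at any member. The interval chr7:15632815-15633272 was 458 bp wide, with a fold of 4.13 and a −log10 q of 25.6. The summit lay 6759 bp downstream of the annotated start, 46.7% of the way along the gene. The table gives no exons, so whether it falls in an exon or an intron was not determined. Whether reads of the peak could also be placed at a related copy was not tested. In the whole list 5.54% of the peaks (3296 of 59485) had a fold at least as high. The peak stood alone, with the next summits 19515 bp below it and 48790 bp above it. The other 3 peaks within 25 kb of the gene, all on the lower-coordinate side, had folds of 1.91 to 2.04.

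Obox1 (chr7:15547257-15556846, plus strand) had no peak within 25 kb. From its start the nearest summit was 36546 bp away, and from its far end 26957 bp. Obox5 (chr7:15750370-15759274, plus strand) had 2 peaks within 25 kb, 18757 and 18930 bp before its start, with folds of 2.13 and 2.09. Obox6 (chr7:15833250-15839679), known from work on reprogramming to pluripotency, had 13 peaks within 25 kb and none closer than 9652 bp. Of these, 12 lay on its lower-coordinate side, and their folds with that of the other one were 1.86 to 2.45. The 3 genes without a peak therefore differed in their surroundings, from none at Obox1 to 13 at Obox6.

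**Figure D1:**
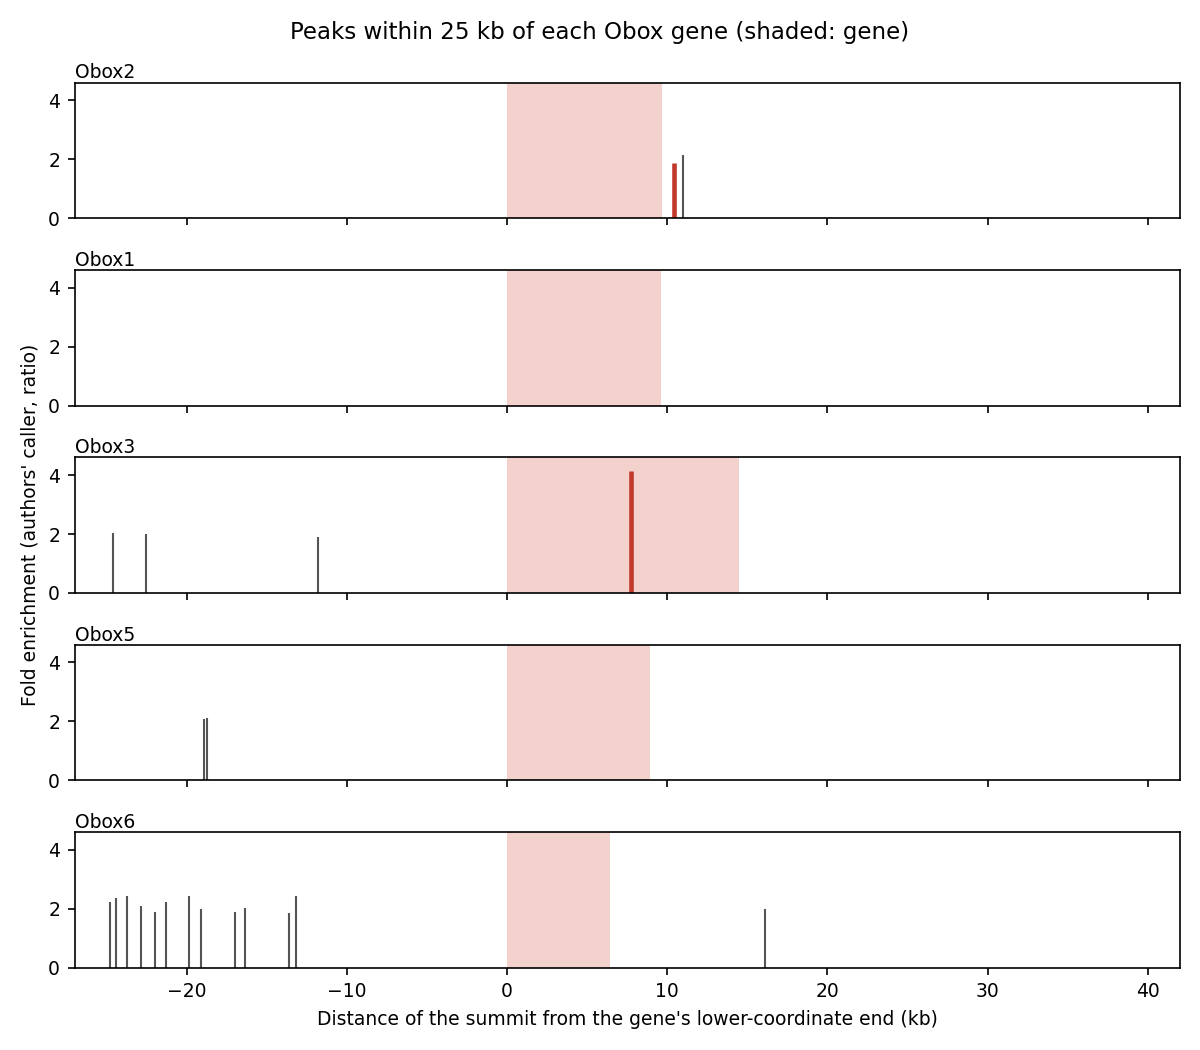
NELFA peaks within 25 kb of each Obox gene, drawn as vertical lines at the distance of the summit from the gene's lower-coordinate end (x axis, kb) and as high as the fold enrichment given by the authors' caller (y axis, ratio). The gene is shaded, red lines are peaks in the gene or within 1 kb of it, and the peak of fold 4.13 inside Obox3 stands above all others shown.

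The distance from a member's boundary to the nearest summit had a median of 11800 bp over the 10 boundaries, against 33070 bp over all protein-coding genes and 1896 bp over the 1427 protein-coding genes that lie in 1 Mb windows with 100 or more peaks. In those windows, a comparison chosen after the data were seen, 59.6% of the protein-coding genes had a boundary peak and 77.2% a boundary or interior peak. The Obox members, with 1 and 2 of 5, thus lay closer to peaks than the genes of the genome at large and farther from them than the genes of all such peak-rich windows, their own included. These are descriptions of 5 neighbouring, related genes, with no test of the difference.

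**Figure D2:**
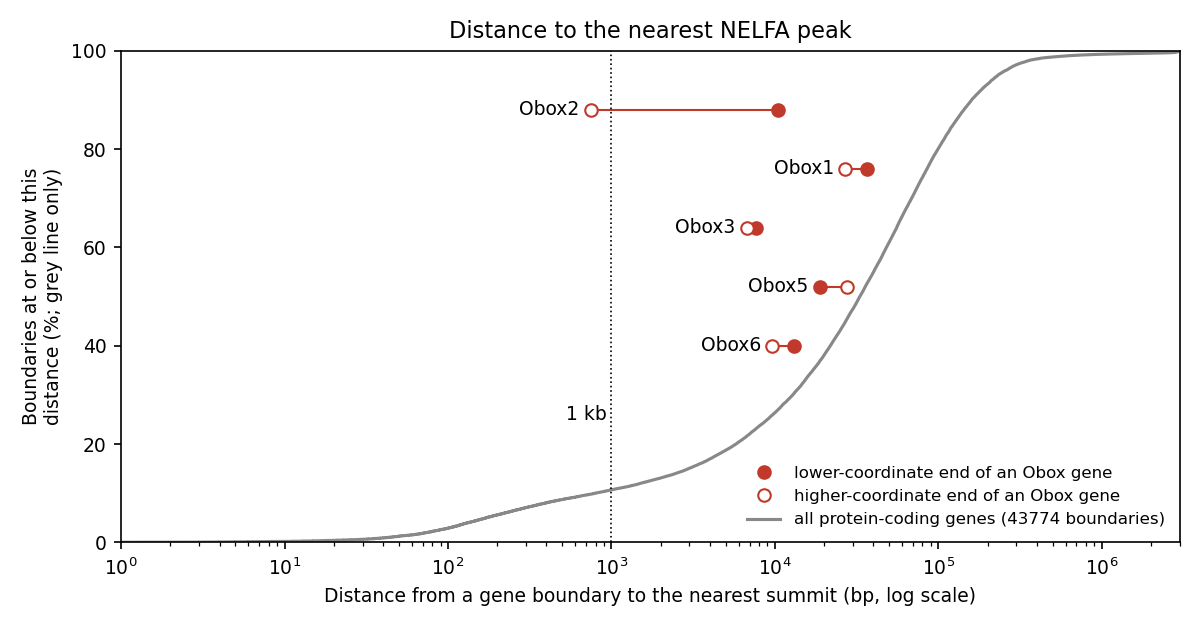
Distance from each end of the 5 Obox genes to the nearest NELFA summit (red circles, x axis in bp on a log scale; the height of a gene's row has no meaning) and the cumulative share of the 43774 boundaries of all protein-coding genes (grey line, y axis in percent). Of the Obox boundaries, that at the higher-coordinate end of Obox2 (747 bp) is the one left of the dotted line at 1 kb.

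The stretch of 1 Mb that holds the members was rich in peaks, but most of them lay in runs of Obox4 copies, which hold no member. It had 233 summits, 7.03% of the 3314 on chromosome 7. Among 2621 windows of 1 Mb that hold a peak, 21 had more, and the median window had 11. The members with 1 kb on each side cover 5.91% of the stretch and held 2 of the 233 peaks (0.858%, 95% Wilson interval 0.236 to 3.08%, which covers counting error only and treats peaks as independent). This is 0.338 peaks per 10 kb at the members, against 0.647 in the rest of the stretch outside runs of Obox4 copies and 9.91 in those runs. The runs held 182 of the 233 peaks, so the share over the whole stretch largely reflects them. Outside the runs, 2 of 51 peaks (3.92%) were at members. There the members with 1 kb on each side cover 59092 bp and the rest 757329 bp. With 2 peaks, this does not set the members apart from the rest. The 2 peaks had folds of 4.13 and 1.86, against a median of 2.13 (1.77 to 7.61) for the 231 others. By fold, the Obox3 peak ranked 6 of 233 and led the 51 peaks outside the runs, where the next had 3.09. Within the stretch each fold goes with a single −log10 q (45 distinct values of each), so both measures rank its peaks alike.

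**Figure D3:**
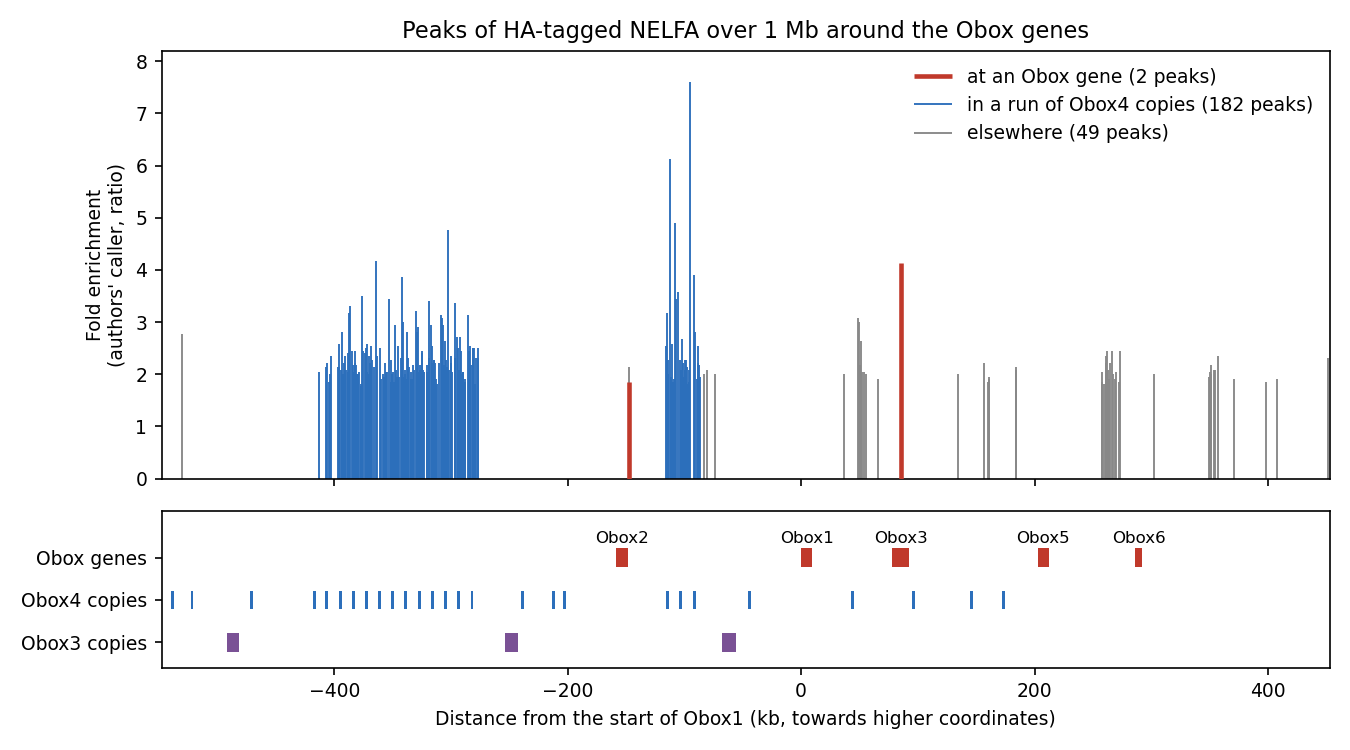
All 233 NELFA peaks of the stretch, by distance of the summit from the start of Obox1 (x axis, kb) and fold enrichment from the authors' caller (y axis, ratio), with Obox genes and pseudogene copies below (bars at least 2.5 kb wide). The peaks crowd into 2 runs of Obox4 copies (blue, 182 peaks), while the 2 red lines mark the peaks at Obox3 (fold 4.13) and Obox2 (fold 1.86).

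The RefSeq table lists 53 Obox entries, 6 protein-coding and 47 pseudogenes, of which 51 lie on chromosome 7 and 2 on chromosome 17. Obox7, the coding gene outside the listed members, had no peak within 33100 bp. Of the 38 Obox4 pseudogenes, 16 stand in 2 runs of at least 3 copies with starts no more than 12 kb apart, a limit chosen after the data were seen. The first run reaches from Obox4-ps11 to Obox4-ps23 (13 copies) and the second from Obox4-ps27 to Obox4-ps29 (3 copies). Neighbouring starts were 10382 to 11368 bp apart, with a median of 11330 bp. Extended by 5665 bp on each side, the runs covered 18.4% of the stretch and held 182 of its 233 peaks (78.1%, 95% Wilson interval 72.4 to 82.9%). This interval too covers counting error only and treats neighbouring peaks as independent, which they are not. Peaks covered 36.9% of the first run (148 peaks, folds 1.77 to 4.77) and 43.5% of the second (34 peaks, folds 1.82 to 7.61).

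A boundary peak was found at 15 of the 16 Obox4 copies in runs, against 0 of the 22 Obox4 pseudogenes elsewhere, 0 of the 8 Obox3 pseudogenes and 1 of the 5 members. Among all protein-coding genes the share was 18.8%. The exception in the runs was Obox4-ps11, a copy of 729 bp at the edge of the first. Copies of like length differed between the groups. All 10 copies of 1763 bp in runs had a boundary peak, whereas outside the runs Obox4-ps9, Obox4-ps31 and Obox4-ps33, of 1756 to 1758 bp, had none, with the nearest summit 4765 to 9796 bp away. The runs were defined with the peaks in view, so these counts describe the locus. The first run held 10.0 peaks per 10 kb and the second 9.51. At that density a copy with 1 kb on each side is likely to hold a summit wherever it lies. The contrast between copies in and outside the runs thus restates the density of the runs. Copies that are near-identical share reads, but the sequences of these copies were not compared. How the authors placed such reads is not given in the sources used here. A peak can thus not be assigned to 1 copy with certainty, and the part that read placement has in the contrast was not tested.

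Peaks recurred at like places along most of the copies. The copies are not independent, and the part that read placement has in this likeness was not tested. In 10 of the 16, the strongest peak within 5665 bp of the copy's lower-coordinate end lay 1513 to 2327 bp below that end, outside the annotated pseudogene, with folds of 3.13 to 7.61. In 3 others, Obox4-ps13, Obox4-ps21 and Obox4-ps27, it lay 2877 to 2977 bp above that end, with folds of 2.81 to 6.13. The remaining 3, Obox4-ps11, Obox4-ps12 and Obox4-ps28, had it at neither place. There it lay 4106 to 4833 bp from that end, with folds of 2.04 to 4.9. Peaks inside the copies were weaker than those 1 to 3 kb below the lower end, but not than those 3 to 5 kb away on either side. From 0 to 1 kb above that end 14 of 16 copies had a summit and 2 had one with a fold of at least 3. From 2 to 3 kb below that end 9 copies had a summit and 8 of these reached that fold. The highest fold per copy had a median of 2.38 from 0 to 1 kb above the end and 2.22 from 1 to 2 kb above it. This median was somewhat higher just outside the copies, 2.54 from 0 to 1 kb below the end and 2.47 from 2 to 3 kb above it. It was 3.22 and 3.36 in the bins 1 to 2 and 2 to 3 kb below, and 2.04 to 2.2 in those 3 to 5 kb away on either side. The strongest peak of the stretch (chr7:15451661-15454109, fold 7.61, 2449 bp wide) lay 1930 bp below Obox4-ps29. The other 4 of the strongest 5 were nearest to Obox4-ps27 (6.13), Obox4-ps28 (4.9), Obox4-ps21 (4.77) and Obox4-ps16 (4.18). Each lay outside the annotated pseudogene, by 1182 to 4106 bp.

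**Figure D4:**
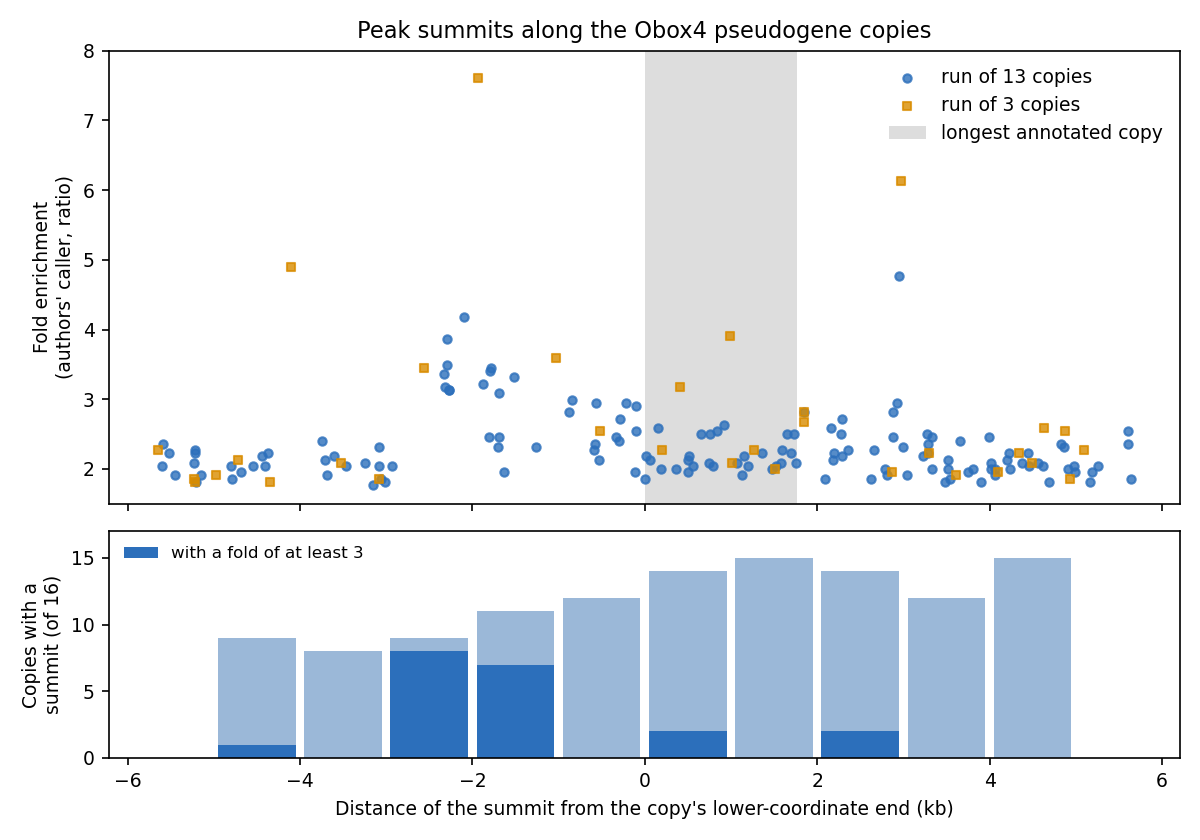
Upper panel: summits around the 16 Obox4 copies in runs by distance from the copy's lower-coordinate end (x axis, kb) and fold enrichment from the authors' caller (y axis, ratio, not starting at 0). Lower panel: number of copies with a summit in each 1 kb bin (light) and with one of fold 3 or more (dark). The dark bars are highest from 1 to 2 kb (7 copies) and 2 to 3 kb (8 copies) below the copy.

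A peak was also found inside 1 of the long pseudogene copies of Obox3. Among the 6 Obox3 and Obox3 pseudogene loci of chromosome 7 longer than 5 kb, Obox3 and Obox3-ps3 (chr7:14931205-14945227) each held 1 peak and the other 4 held none. In Obox3 the summit was 7712 bp from the lower-coordinate end and in Obox3-ps3 7752 bp, a difference of 40 bp. From the other end, where Obox3 starts, the distances were 6759 bp in Obox3 and 6270 bp in Obox3-ps3. The fold was 4.13 in Obox3 and 2.45 in Obox3-ps3 (chr7:14938820-14939005, −log10 q 6.2). The 4 without a peak were Obox3-ps2, Obox3-ps4, Obox3-ps5 and Obox3-ps6, which are 10650 to 11802 bp long, against 14472 bp for Obox3 and 14023 bp for Obox3-ps3. Whether the peaks of Obox3 and Obox3-ps3 lie on related sequence was not determined, since no genome sequence was used. Nor was it determined whether the other 4 lack such sequence. Reads that align to both loci could be placed at either, and how such reads were placed is not given. The peaks may thus not be independent, and neither can be assigned to its locus with certainty.

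The nearest other homeobox genes are Crx, which encodes a transcription factor of photoreceptors, and Crxos next to it. Crx had no peak, with the nearest summits 16616 and 16580 bp from its ends. Crxos had 1 boundary peak and 6 interior peaks with folds of 1.95 to 2.36. Of 35 paired-type homeobox genes found in the annotation, 2 had a boundary peak (5.71%, against the 18.8% of all protein-coding genes), Duxf3 with a fold of 7.6 and Crxos with 2.36. In the Rhox genes, a tandem homeobox cluster of the X chromosome, 1 of 33 had one, Rhox2g with 2.22. Rhox1, Rhox10 and Rhox11 had none.

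Other families of the 2-cell-like state are set beside the Obox genes, with a boundary peak at 1 of 5, and all protein-coding genes, with 18.8%. All 4 Zscan4 genes, zinc-finger genes on the same chromosome, had one, with folds of 3.54 at Zscan4f, 3.45 at Zscan4d, 3.36 at Zscan4c and 2.95 at Zscan4b. Of the 8 Tdpoz genes 5 did, led by Tdpoz4 (3.22), Tdpoz3 (3.18), Tdpoz9 (2.27) and Tdpoz8 (2.09), and Tdpoz1, Tdpoz5 and Tdpoz7 did not. Of the 5 Usp17-like genes 2 did, Usp17lc (3.59) and Usp17le (2.0), and Usp17la, Usp17lb and Usp17ld did not. That is 1 gene more than among the Obox genes, and the Usp17-like count was 1 with a 500 bp window or a −log10 q of at least 4. Both Tcstv genes did, Tcstv3 with 2.95 and Tcstv1 with 2.27. Among 5 single markers, Duxf3 (7.6), Sp110 (5.17), Zfp352 (3.09) and Tmem92 (2.0) did and Arg2 did not. Several of these families, like the Obox4 runs, hold related copies, whose part in the counts was not tested. No test of the difference from the Obox genes was made.

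Genes of the oocyte, where Obox genes are best known, had boundary peaks in 4 of 25 cases (16%), near the 18.8% of all protein-coding genes. The 4 were weak: the receptor gene Kit with a fold of 2.04, the transcription factor gene Figla with 1.91, and the growth factor gene Gdf9 and Dppa3 with 1.82 each. Bmp15, Btg4 and H1f8 had none.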

How the data were processed

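Of 35 libraries, the 7 ChIP-seq libraries are represented by 1 deposited peak list, and no result here uses the 20 libraries of RNA-seq or the 8 of ATAC-seq. The submitters' processing notes name mm10 as the build and, as tools, MACS2, Bowtie2 2.2.9, SAMtools 1.4 and Trim Galore 0.4.2. How replicates were pooled and how reads with several alignments were handled is not stated in the sources used here. The tags R1234 and MAPQ0 in the peak names are not explained there. Column 7 of the list holds linear fold ratios from the authors' peak caller. Significance was taken from the deposited −log10 q-value, 1.31 at the lowest. The read depth is unknown.

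The members and lists were chosen with earlier results of these data known. Summits (column 2 plus column 10) placed peaks, and printed positions count from 1. Genes were scored against RefSeq GRCm38.p6 boundaries, with strand only for genes in the promoter table. All 5 members are named, with other Obox entries, the 5 strongest peaks of the stretch, and up to 4 genes with and 3 without a boundary peak per list. Drgx was not analysed here. A gene of the paired-type list that this rule would name is not reported here. Alternatives were other window sizes, stricter peaks, interval overlap and a longer stretch. Protein sequences were not analysed here. Promoter windows were aligned locally (match 2, mismatch -3, gap opening -5, extension -2). The scoring was tested on simulated data. Python 3.11.15, numpy 2.4.6, pandas 2.3.3, scipy 1.17.1, biopython 1.88 and matplotlib 3.10.9 were used.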

Additional observations from a re-analysis of the deposited data

How the results depend on the processing

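The interior peak of Obox3 was found under all 5 settings tried for it (windows of 500 bp and 2 kb, a −log10 q of at least 4, folds at or above the list's median, and any overlap of the interval). With its summit 6759 and 7712 bp from the ends, a fold of 4.13 and a −log10 q of 25.6, none of these could have removed it. The boundary peak of Obox2 depended on the setting. The number of members with one was 0 with a 500 bp window, 0 with a −log10 q of at least 4, 0 at or above the median fold and, chosen after the data were seen, 0 at RefSeq starts, and stayed 1 with a 2 kb window and with interval overlap. The share of the stretch's peaks that lay at members was 3.92% (2 of 51) without the runs of Obox4 copies, a setting also added with the data in view, and 0.429 to 1.29% in the others, including a stretch from 14 to 17 Mb. The members' median fold rests on 2 peaks. Among 24 recounts of the gene lists, a 500 bp window gave 1 Usp17-like, 1 Tcstv and 3 oocyte genes, and a 2 kb window 3 paired-type genes and 5 single markers. A −log10 q of at least 4 gave 3 Tdpoz, 1 Usp17-like, 3 single-marker and 0 oocyte genes. The other recounts equalled the reported counts. No paired analysis was possible because the list has no column for a single library, and no replicate could be left out for the same reason. The unknown read depth limits every fold.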

Other observations

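Of the other genes at the higher-coordinate edge of the stretch, Selenow, Nop53, Gm24576, Ehd2 and Bicra carried 1 or 2 peaks each. Their folds were 1.86 to 2.32. Ass-ps1, Snord23 and Gm38948, also at that edge, carried none. Nop53, a ribosome biogenesis gene, had a boundary peak of fold 1.86 with its summit 118 bp from the gene's higher-coordinate end. The same peak lay within 1 kb of Ehd2 (973 bp) and of the non-coding gene Gm24576 (103 bp). Ehd2 also had an interior peak of fold 1.91. Selenow had 1 interior peak of fold 1.91, and its summit, 1143 bp from the lower end, was just beyond the boundary limit. Bicra had 1 interior peak of fold 2.32.

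Peaks were unevenly spread along the stretch in bins of 100 kb. The bins that hold the starts of Obox2, Obox1, Obox3, Obox5 and Obox6 had 2, 7, 5, 6 and 20 peaks. Those from 15.1 and 15.2 Mb, with the first run of Obox4 copies, had 65 and 83.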
